A study of Mus musculus with 2 samples.

Results

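The 98 cells described here were unlabelled myeloid cells in the control library of a single-cell RNA study of mouse thoracic aorta. They were chosen from the UMI counts themselves (unique molecular identifiers, 1 per captured RNA molecule). A cell of the control library belonged when it had at least 500 genes and at most 10% mitochondrial UMIs and no more than 2 UMIs of the eGFP reporter. It also needed at least 5 UMIs of Lyz2, Tyrobp and Fcer1g together, under 20 of the MHC class II genes H2-Aa, H2-Ab1, H2-Eb1 and Cd74, under 3 of Cd79a, Cd79b and Ms4a1 of B cells, under 20 of S100a8 and S100a9, and under 3 of Gzma and Nkg7. These 98 cells were 4.8% of the 2042 control cells that passed the gene and mitochondrial limits (exact binomial 95% interval 3.91% to 5.82%), of 4192 cells deposited for both libraries. They were proposed as monocytes and macrophages. Monocyte genes were abundant in them, whereas the defining genes of tissue macrophages were at or near 0, so they are called class II-low myeloid cells below.

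The study compared SMCs (smooth muscle cells) of 2 genotypes by droplet single-cell RNA sequencing, 1 library each. The knockout (KO) library came from Tsc1fl/fl.Myh11-CreERT2.mT/mG male mice, labelled Tsc1-/-, and the control library from Myh11-CreERT2.mT/mG male mice, labelled Tsc1+/+. All were C57BL/6, received tamoxifen at 1.5 weeks and were sampled at 24 weeks of age, so controls carried the same Cre, reporter and drug. Myh11-CreERT2 is a tamoxifen-dependent recombinase driven by a smooth muscle promoter, and in mT/mG cells Cre action replaces a membrane tdTomato reporter with eGFP. Viable GFP+ cells were sorted from digested aorta, and no source used here gives the number of animals. With 1 library per genotype no test between genotypes was possible, and cells are not replicates, so all values are descriptions. Ranges in brackets are exact 95% intervals of the counts, and they cover counting error only. Levels are CPM, the summed UMIs of a gene scaled to the same total in every population, and they make no allowance for gene length.

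As background, monocytes are blood phagocytes that arise in bone marrow, enter tissue through chemokine receptors such as Ccr2, and can there become macrophages or class II-expressing antigen-presenting cells. In mice, classical monocytes carry much Ly6C, which Ly6c2 encodes, whereas nonclassical monocytes carry little Ly6C, depend on Nr4a1 and patrol the vessel wall from inside. Resident macrophages of the arterial wall are usually recognised by complement C1q and scavenger receptor genes.

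The rule fixed some values, which are given here as a description. The sum of Lyz2, Tyrobp and Fcer1g had a lowest, median and highest value of 6, 178 and 418 UMIs per cell. The 3 cells nearest to its limit from inside had 6, 15 and 18 UMIs, and those nearest from outside, among cells that met every other part of the rule, had 3, 3 and 2. The class II sum was 0, 2 and 19 UMIs at its lowest, median and highest, with 19, 18 and 18 UMIs just inside the limit and 20, 22 and 31 just outside. That limit alone set aside 81 cells, the class II-high myeloid cells, which serve as the nearest comparison. The limit on Gzma and Nkg7 alone set aside 54 cells, and that on S100a8 and S100a9 alone 8 cells, whose nearest sums were 106, 1198 and 1583 UMIs. Other comparisons used 74 unlabelled cells with B cell genes, 55 with cytotoxic lymphocyte genes, and 1701 cells with 3 or more eGFP UMIs, the labelled cells.

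**Figure D1:**
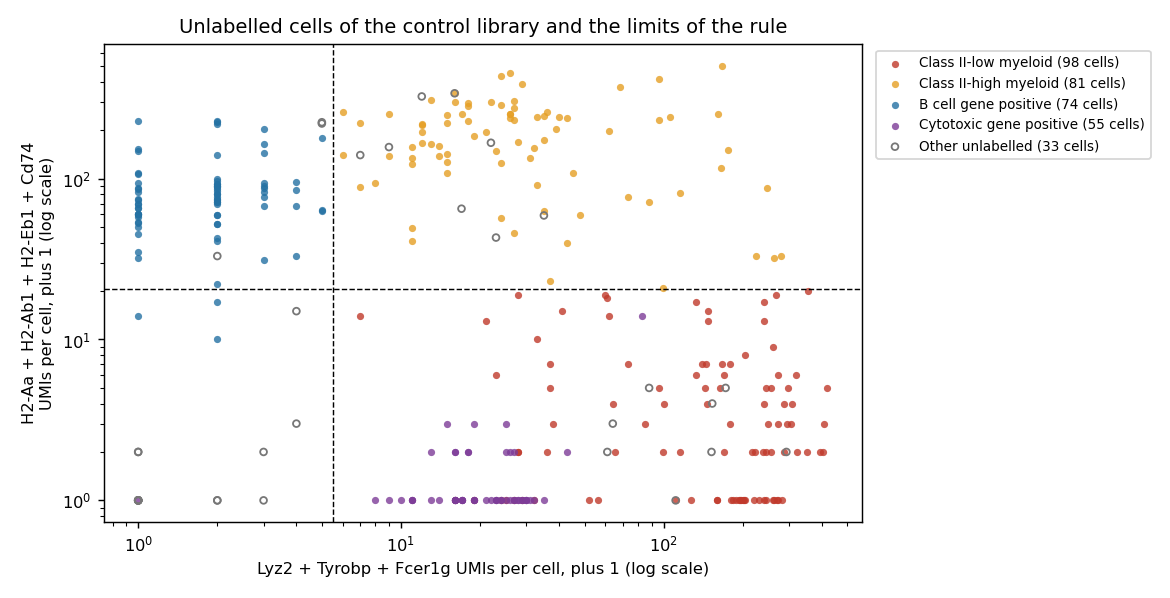
Each point is an unlabelled cell of the control library, by its UMIs of Lyz2, Tyrobp and Fcer1g (x axis, log scale of the sum plus 1) and of 4 MHC class II genes (y axis, log scale of the sum plus 1), with dashed lines at the limits of the rule. The 98 class II-low myeloid cells fill the lower right, and the nearest class II-high cell had a class II sum of 20 UMIs, against 19 in the nearest class II-low cell.

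The class II-low cells went against the labels of their library in sex-linked genes, which the rule did not use. Xist, the noncoding RNA of the inactive X chromosome of females, had 266 UMIs, or 663 CPM (585 to 747), and 88 of the 98 cells had at least 1 (89.8%, 82% to 95%). In the labelled cells of the same library Xist had 5 UMIs, or 0.249 CPM (0.0809 to 0.581), in 5 of 1701 cells. The Y chromosome genes Uty, Kdm5d, Ddx3y and Eif2s3y together had 0 UMIs in the class II-low cells, which allows up to 7.47 CPM, against 164 CPM (158 to 169) in 80.4% of the labelled cells. The eGFP reporter, low by the rule, had 3 UMIs in 3 class II-low cells, or 7.47 CPM (1.54 to 21.8), against 5646 CPM in labelled cells, and tdTomato had 0 UMIs in both, which in the labelled cells allows up to 0.15 CPM. In 3 other unlabelled populations Xist was at 1410 CPM in class II-high cells, 1523 CPM in B cell gene positive cells and 854 CPM in cytotoxic gene positive cells, with no Y-linked UMI in any of the 3. Over all 341 unlabelled cells Xist had 1050.2 CPM in 303 cells and the Y-linked genes 2 UMIs in 2 cells, both outside the class II-low cells and those 3 populations. The library was labelled male, and how Xist-bearing cells came to be in it was not tested.

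**Figure D2:**
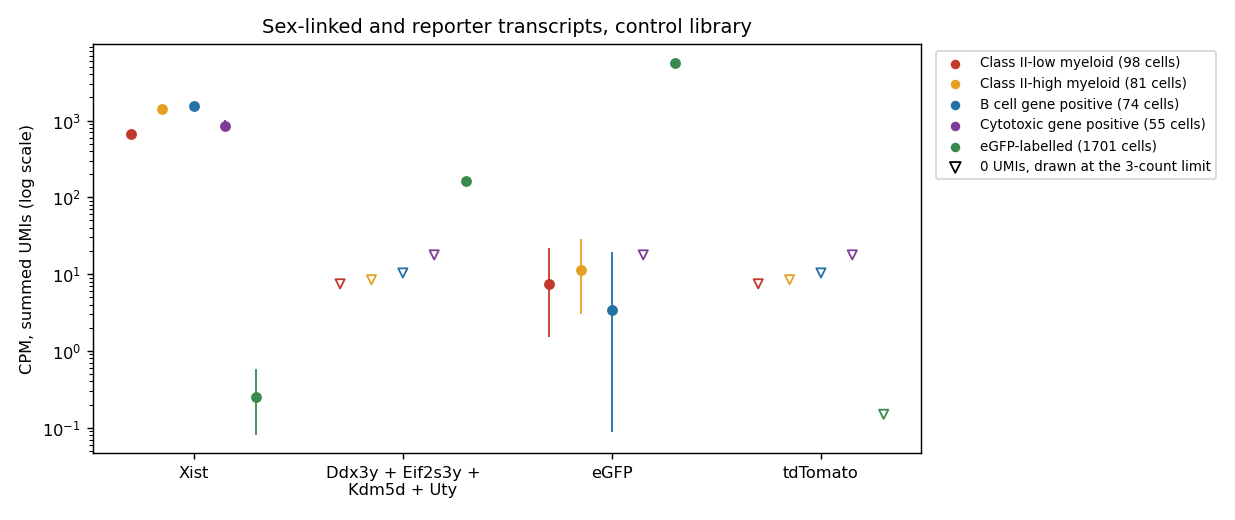
Summed level (CPM, log scale, with exact 95% Poisson intervals) of Xist, 4 Y-linked genes and 2 reporter transgenes in 5 populations of the control library, and open triangles mark 0 UMIs, drawn at the level of 3 counts. Xist was at 663 CPM in the class II-low myeloid cells and at 0.249 CPM in the labelled cells, and the Y-linked sum was at 0 UMIs in the class II-low cells.

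The class II-low cells held 401452 UMIs in all, with 2284, 4178.5 and 6623 UMIs per cell at the lowest, median and highest, and 813, 1370 and 1951 genes. Mitochondrial UMIs were 0.376%, 2.21% and 4.28%. The class II-high cells had a median of 4292 UMIs, B cell gene positive cells 3431.5, cytotoxic gene positive cells 2775 and labelled cells 11643. Of 16 barcodes present in both libraries, 0 belonged to class II-low cells, and of 6 control cells that Scrublet called doublets, 0 were among them. In the class II-low cells 3 UMIs equal 7.47 CPM, the level that a count of 0 allows.

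Spi1 encodes PU.1, the ETS-family transcription factor on which myeloid development depends, and it had 757 CPM (675 to 847) in the class II-low cells, where 93.9% of cells had a UMI. The promoter windows of 3 of the 6 genes that mark these cells are printed here because PU.1-type sites are 1 feature the rule did not use. Each is the reference sequence from 250 bases before to 50 after a gene's start, from RefSeq on GRCm38.p6, written 5′ to 3′ on the strand of the gene. Capitals mark the word GAGGAAGT, which holds the GGAA core of ETS sites, or its reverse complement ACTTCCTC.
Ly6c2, chr15:75111922-75112221, minus strand: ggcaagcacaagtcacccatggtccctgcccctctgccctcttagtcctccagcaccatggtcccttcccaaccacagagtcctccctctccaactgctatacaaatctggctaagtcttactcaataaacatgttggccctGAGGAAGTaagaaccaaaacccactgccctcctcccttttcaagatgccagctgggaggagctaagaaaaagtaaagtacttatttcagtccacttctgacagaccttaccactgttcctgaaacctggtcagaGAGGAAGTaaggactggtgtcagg
Ctss, chr3:95526536-95526835, plus strand: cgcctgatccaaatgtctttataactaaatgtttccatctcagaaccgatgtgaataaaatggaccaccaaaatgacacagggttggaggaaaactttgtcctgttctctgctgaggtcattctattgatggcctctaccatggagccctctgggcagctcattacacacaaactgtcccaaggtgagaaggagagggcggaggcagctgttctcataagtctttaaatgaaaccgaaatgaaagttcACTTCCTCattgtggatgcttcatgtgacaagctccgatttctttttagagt
Lyz2, chr10:117282223-117282522, minus strand: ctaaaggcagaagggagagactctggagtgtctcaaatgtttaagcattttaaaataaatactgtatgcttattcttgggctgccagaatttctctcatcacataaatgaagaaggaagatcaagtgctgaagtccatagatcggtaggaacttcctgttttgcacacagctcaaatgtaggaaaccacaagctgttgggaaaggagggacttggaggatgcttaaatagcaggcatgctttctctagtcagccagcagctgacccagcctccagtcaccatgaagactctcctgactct
The Ly6c2 window held the word 2 times on the gene's own strand, the Ctss window 1 time on the other strand, and the Lyz2 window 0 times. Of the 6 marker genes, 5 matched the table of windows, and 2 of them held the word on either strand. Across all 32851 windows of the same length, 1052 held it (3.2%). A match of letters is a description and does not show that a factor binds there.

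The genes that mark these cells were abundant in them and near 0 in labelled cells. Lyz2, on GRCm38 at chr10:117277331-117282321, minus strand, encodes lysozyme, an enzyme that cleaves bacterial cell walls, and it was the most abundant transcript, leaving aside mitochondrial and ribosomal protein genes. Its lowest, median and highest counts per cell were 0, 142 and 357 UMIs. In class II-high cells Lyz2 had 0, 2 and 230 UMIs, so its sum there was spread unevenly over the cells. Summed, it had 33394 CPM (32831 to 33964) in the class II-low cells, against 5748 CPM (5502 to 6003) in class II-high cells and 4.63 CPM (3.74 to 5.68) in labelled cells. Lyz2 was part of the rule, so this is no test. A few class II-low cells lacked it almost wholly, with 8 cells at 0 UMIs and 10 at 0 or 1, and these are described further on.

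Plac8 (chr5:100553725-100572245, minus strand), a small cysteine-rich protein of leukocytes, was not in the rule and had 0, 30 and 95 UMIs per cell at the lowest, median and highest. It had 7871 CPM (7599 to 8151) in the class II-low cells, against 3564 CPM (3370.1 to 3766) in class II-high cells and 3.69 CPM (2.9 to 4.63) in labelled cells. B cell gene positive cells also had much of it, at 2932 CPM. Ms4a6c (chr19:11469366-11482192, plus strand), a membrane protein of the MS4A family, had 927 CPM (835 to 1026) in class II-low cells and 560.2 CPM (485 to 644) in class II-high cells. Ctss (chr3:95526786-95556403, plus strand), cathepsin S, a lysosomal protease that trims the class II invariant chain, had 1821 CPM (1691 to 1958), against 1191 CPM (1080.0 to 1309.8). Tyrobp (chr7:30413760-30417585, plus strand) and Fcer1g are signaling adaptors of immune receptors, and both were found in 100% of the class II-low cells, as the rule favoured. Tyrobp had 5084 CPM (4866 to 5309.5) in class II-low cells and 2868 CPM (2695 to 3050.1) in class II-high cells. In B cell gene positive cells it had 128 CPM, and in cytotoxic gene positive cells 3821 CPM.

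Ly6c2 (chr15:75108158-75111970, minus strand) was the most uneven of the 6. It had 0, 4 and 56 UMIs per cell at the lowest, median and highest, with 25 cells at 0, 18 cells at 1 to 2, 9 at 3 to 4 and 46 at 5 or more. Its summed level was 1485 CPM (1368 to 1609) in the class II-low cells, against 304 CPM (249 to 367) in class II-high cells, or 4.88-fold (3.97 to 6.05) higher. At least 1 UMI was seen in 74.5% of the class II-low cells, against 22.2% of class II-high cells and 5.41% of B cell gene positive cells, a type that should lack it. With each cell thinned to 1500 UMIs the shares were 61.2% of class II-low and 14.8% of class II-high cells. Cytotoxic gene positive cells carried Ly6c2 too, with 11 UMIs in 1 of them and 8 in another. Ly6c2 was therefore not confined to the myeloid cells. Ly6c2, the Ms4a genes, Ear2, Bcl2a1a and the globin genes have close paralogs, and no source used here says how reads matching several genes were counted.

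**Figure D3:**
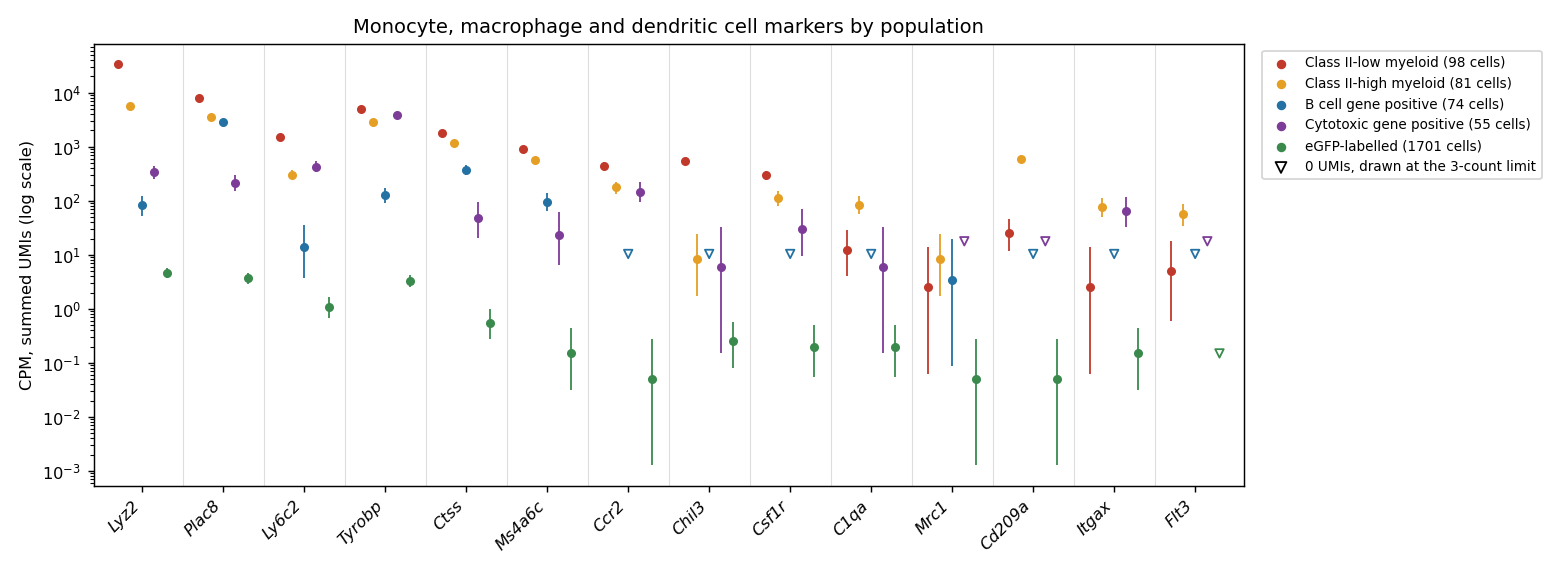
Summed level (CPM, log scale, with exact 95% Poisson intervals) of 14 marker genes in 5 populations of the control library, with open triangles for 0 UMIs drawn at the level of 3 counts. The class II-low myeloid cells had the highest point for Lyz2, Plac8, Ly6c2, Ccr2, Chil3 and Csf1r, and the class II-high cells for Cd209a, Itgax and Flt3.

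The classical monocyte genes were high as a group. Of the 15 genes on that list, 13 had 50 CPM or more in the class II-low cells, and 11 of these were at least 2 times as high there as in class II-high cells, with 0 lower. Among all 2488 genes with 50 CPM or more in either population, 305 were at least 2 times higher in the class II-low cells (12.3%) and 226 lower (9.08%). The median log2 ratio was 2.54 over the list's 13 genes and 0.15 over all genes tested, and the list holds Lyz2, which was in the rule, and 3 further marker genes of these cells. Chil3, a chitinase-like secreted protein of classical monocytes and alveolar macrophages, had 217 UMIs, or 541 CPM (471 to 617), against 3 UMIs, or 8.44 CPM (1.74 to 24.7). It was spread unevenly, with 31 UMIs in the highest cell and a median of 0. F13a1, the transglutaminase subunit of clotting factor XIII, had 264 CPM (216 to 319), against 19.7 CPM (7.92 to 40.6), or 13.4-fold (6.28 to 34.1) higher. Hp, haptoglobin, had 558 CPM (487 to 636), against 36.6 CPM (19.5 to 62.6). Mgst1, a microsomal glutathione transferase, had 660.1 CPM (583 to 745), against 61.9 CPM (38.8 to 93.8). Fn1, fibronectin, had 381 CPM (323 to 447), against 33.8 CPM (17.5 to 59), and labelled cells had 558 CPM.

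A receptor by which monocytes home followed the same order. Ccr2, the receptor for Ccl2, had 0, 1 and 9 UMIs per class II-low cell at the lowest, median and highest, and 443 CPM (381 to 514) in sum, against 177 CPM (136 to 227) in class II-high cells. It was seen in 67.3% of class II-low cells, against 35.8% of class II-high and 0% of B cell gene positive cells. Other list members past 2 times were Ly6c2, Plac8, Lyz2 and Clec4e, a receptor for mycobacterial glycolipid, at 64.8 CPM (42.3 to 94.9) against 14.1 CPM (4.57 to 32.8). Ms4a4c, at 321 against 234 CPM, and Ms4a6c lay below 2 times. Vcan and Thbs1 stayed under 50 CPM, with 5 and 10 UMIs in the class II-low cells.

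The 16 nonclassical monocyte genes were also present, at lower sums. Of these, 15 had 50 CPM or more in the class II-low cells, 5 were at least 2 times higher than in class II-high cells and 0 were lower, with a median log2 ratio of 0.73. Among all genes tested 12.3% were higher and 9.08% lower, with a median of 0.15. Cx3cr1, the fractalkine receptor, had 239 CPM (194 to 292), against 98.5 CPM (68.6 to 137). Itgal, the alpha chain of the integrin LFA-1, had 212 CPM (169 to 262), against 78.8 CPM (52.4 to 114). Adgre4, an adhesion receptor of myeloid cells, had 117 CPM (86 to 156), against 53.5 CPM (32.2 to 83.5). Fabp4, a fatty acid-binding protein, had 52.3 CPM, against 11.3 CPM, and it was higher still in labelled cells at 124 CPM. Nr4a1, the orphan nuclear receptor that nonclassical monocytes need in mice, had 316 CPM (264 to 376), against 267 CPM (216 to 327), and the interval of their ratio, 1.18-fold (0.9 to 1.56), spans 1. Nr4a1 is also an immediate early gene and had 1198 CPM in labelled cells.

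The tissue macrophage list went against the proposed name. Of 19 genes, 4 had 0 UMIs in all 98 cells, Lyve1, Timd4, Gas6 and Vsig4, and 4 had 50 CPM or more. Of 6 genes with that level in either population, 3 were at least 2 times higher than in class II-high cells and 2, C1qa and C1qb, lower. The shares over all genes tested were 12.3% higher and 9.08% lower. Mrc1, the mannose receptor, Cd163, a haptoglobin-haemoglobin receptor, Folr2, Mertk, a receptor for dying cells, and Pf4 had 1 UMI each. The 3 chains of complement C1q had 5, 12 and 8 UMIs for C1qa, C1qb and C1qc, of which 22 came from 1 cell, and 94 of the 98 cells had none. Adgre1, which encodes the F4/80 antigen, had 47.3 CPM (28.5 to 73.9). Among the 4 that passed 50 CPM, Cd68 and Fcgr1 are also known from monocytes. Cd68, a lysosomal membrane protein of phagocytes, had 301 CPM (250.1 to 360.1), against 234 CPM (186 to 289.6) in class II-high cells. Fcgr1, a high-affinity IgG receptor, had 105 CPM (75.4 to 141), against 25.3 CPM (11.6 to 48.1). Trem2, a lipid-sensing receptor, had 79.7 CPM (54.5 to 113), against 11.3 CPM (3.07 to 28.8). The list sum was 710 CPM in class II-low cells and 571 CPM in class II-high cells, where C1qa had 84.4 CPM and 5 cells had 3 or more C1q UMIs. The labelled cells summed to 872 CPM on this list, so its sum does not set these populations apart.

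Dendritic cell genes were the reverse. Of 12 genes, 4 had 0 UMIs in the class II-low cells and 0 reached 50 CPM there. All 5 that reached it in class II-high cells were at least 2 times lower, with a median log2 ratio of -3.50, where 9.08% of all genes tested were lower. Cd209a, a lectin of monocyte-derived and conventional dendritic cells in mice, had 24.9 CPM (11.9 to 45.8), against 594 CPM (517 to 679.7). Itgax, CD11c, had 1 UMI, against 76 CPM. Flt3, the receptor for the dendritic cell growth factor Flt3 ligand, had 2 UMIs, against 56.3 CPM, and Batf3, a transcription factor of cross-presenting dendritic cells, had 49.8 CPM (30.4 to 76.9), against 152 CPM (114 to 198).

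Class II genes themselves were low by the rule, and genes of the same pathway that the rule did not use were low with them. Ciita, the activator that switches on class II genes, had 1 UMI in class II-low cells, against 81.6 CPM (54.7 to 117) in class II-high cells. H2-DMa, which loads peptides, had 276 CPM (227 to 333), against 959.9 CPM (861 to 1067), and its partner H2-DMb1 had 102 CPM (73.3 to 139), against 597 CPM (519 to 683). H2-DMb2 had 3 UMIs, against 335 CPM, and H2-Oa, a modulator of loading, 6 UMIs, against 293 CPM. Cd86, a costimulatory ligand, stood apart, at 94.7 CPM (67 to 129.9) against 109.8 CPM (78.1 to 150.1). In all 9 of the 10 genes were at least 2 times lower and 0 higher, where 9.08% of all genes tested were lower and 12.3% higher. Because the 2 populations were divided by the class II sum, these ratios describe how the cells were divided. Class I genes did not follow. H2-D1 had 2272 CPM (2127 to 2424), against 1911 CPM (1770.3 to 2061), and B2m had 3858 against 3671 CPM. Of 7 class I genes 0 were 2 times higher and 1, H2-Q7, was lower, at 14.9 against 92.9 CPM.

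Of 20 genes of receptors for antibody and their signaling partners, 18 had 50 CPM or more in class II-low cells. Of these 4 were at least 2 times higher than in class II-high cells and 0 lower, where 12.3% of all genes tested were higher, with a median log2 ratio of 0.54. Fcgr3, a low-affinity activating IgG receptor, had 551 CPM (480.3 to 628), against 118 CPM (85.2 to 159.8), whereas the inhibitory receptor Fcgr2b had 129.5 CPM (96.7 to 169.9), against 124 CPM (90.0 to 166). The others past 2 times were Fcgr1, Trem2 and Lilrb4a, an inhibitory receptor, at 144 against 42.2 CPM. The kinases Lyn and Fgr had 269 and 189 CPM, against 152 and 141 CPM. Csf1r, the receptor for macrophage colony-stimulating factor, had 0, 1 and 6 UMIs per cell at the lowest, median and highest and 296 CPM (246 to 355) in sum, against 113 CPM (80.4 to 153). The granulocyte-macrophage factor receptor chains Csf2rb and Csf2ra had 132 and 169 CPM, against 50.7 and 163 CPM.

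Innate sensing genes were mostly low, and 6 of 18 reached 50 CPM. Cd14, a co-receptor for lipopolysaccharide, had 99.6 CPM (71.2 to 136), against 8.44 CPM (1.74 to 24.7). Pycard, the inflammasome adaptor, had 356 CPM (300.2 to 419.6), against 222 CPM (176 to 277). Tlr7, a sensor of single-stranded RNA, had 20 UMIs, or 49.8 CPM (30.4 to 76.9), against 8.44 CPM (1.74 to 24.7). Of 12 cytokine genes 5 were tested against class II-high cells, of which 2, Il1b and Tnf, were at least 2 times lower and 1, Osm, was higher. Over all genes tested 9.08% were lower and 12.3% higher. Il1b had 79.7 CPM (54.5 to 113), against 225 CPM (179 to 280.3), and Tnf had 7 UMIs, or 17.4 CPM (7.01 to 35.9), against 61.9 CPM (38.8 to 93.8). Tgfb1, a growth and immune regulator, had 436 against 391 CPM.

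Chemokine ligands were higher, and part of that came from 7 cells. Of 9 genes, 6 were at least 2 times higher than in class II-high cells and 1, Cxcl16, was lower, with a median log2 ratio of 2.40 over the 7 tested. Over all genes tested 12.3% were higher and 9.08% lower. Ccl6 and Ccl9, CC chemokines of mouse myeloid cells, had 2175 CPM (2033 to 2324) and 1340.1 CPM (1229 to 1458), against 473 and 394 CPM. Both were also high in the 7 cells, with medians of 31 and 19 UMIs per cell, against 7 and 4 over all class II-low cells. Ccl2, which draws Ccr2-bearing monocytes, had 44 UMIs in 17 class II-low cells, or 109.6 CPM (79.6 to 147), and 0 UMIs in class II-high cells, at least 13-fold higher against a level of 3 counts. Cxcl2, which draws neutrophils, had 77 UMIs in 17 cells, or 192 CPM (151 to 239.7), against 5.63 CPM (0.682 to 20.3). Ccl3 and Ccl4, inflammatory CC chemokines, had 1233 CPM (1127 to 1347) and 729.9 CPM (649 to 818), against 152 and 138 CPM. Without 8 unusual cells described further on, Ccl3 had 379 CPM and Ccl4 213 CPM, and Osm, oncostatin M, had 79 CPM where all 98 cells gave 272 CPM, against 5.63 CPM in class II-high cells.

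Of 18 lysosome genes, 6 were at least 2 times higher than in class II-high cells and 0 lower, where 12.3% of all genes tested were higher. Npc2, which carries cholesterol out of lysosomes, had 1928 CPM (1795 to 2069), against 743 CPM (656 to 838), and Lamp1, a lysosomal membrane protein, 974 CPM (879.8 to 1075), against 332 CPM (275 to 398). Psap, the precursor of sphingolipid activators, had 2799.8 against 1529 CPM. Cst3, a cathepsin inhibitor, was level, at 3423 against 3429 CPM. Of 10 lipid genes 4 were higher and 0 lower. Apoe, which clears cholesterol-rich particles, had 0, 5 and 42 UMIs per cell and 2063 CPM (1924 to 2208) in sum, against 597 CPM (519 to 683), and Lgals3, galectin-3, had 0, 9 and 31 UMIs per cell and 2478 CPM (2327 to 2637) in sum, against 959.9 CPM (861 to 1067). Plin2, which coats lipid droplets, had 115 CPM (83.9 to 153), against 42.2 CPM (23.6 to 69.6). Of 6 oxidase genes 1 was past 2 times, a share near that of all genes. It was Cybb, the catalytic subunit of the phagocyte NADPH oxidase, at 864 CPM (776 to 960.3) against 338 CPM (280.1 to 404), and Cyba, its partner, was at 1719 against 1492 CPM. Genes of the uptake list were mixed, with the scavenger receptor Msr1 at 34.9 CPM (19.1 to 58.5) and 4 of 12 genes at 0 UMIs. Lrp1 had a mean over cells of 1.34 UMIs per 10000, against 0.483 in class II-high cells. The same mean was 2.89 against 2.57 for Cd300a and, the other way, 0.224 against 0.433 for Axl.

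Of 16 interferon-responsive genes 5 were at least 2 times higher than in class II-high cells and 0 lower, where 12.3% of all genes tested were higher. Among the 5 was Ifitm1, with 168 of its 198 UMIs in 7 cells described further on, and without 8 unusual cells it had 79 CPM, against 78.8 CPM in class II-high cells. Ifitm3, a membrane protein that blocks viral entry, had 0, 27 and 58 UMIs per cell and 6586 CPM (6337 to 6842) in sum, against 3344 CPM (3157 to 3539.9). Ifitm6 had 792 against 298 CPM, and Ifi27l2a 3017 against 1368 CPM. Zbp1, a sensor of nucleic acid, had 162 CPM (125 to 206), against 47.9 CPM (27.9 to 76.6). The strongly inducible genes Ifit1 and Rsad2 had 2 and 11 UMIs. Most transcription factors of the lineage lay within 2 times of class II-high cells, 10 of the 13 tested. Spi1 had 757 against 718 CPM, a ratio of 1.05-fold (0.89 to 1.25), Irf8 239 against 228 CPM and Klf4 249 against 259 CPM. Cebpb, which supports Ly6C-low monocytes in mice, had 92.2 CPM (64.9 to 127), against 11.3 CPM (3.07 to 28.8), and was 1 of 2 past 2 times higher, while Batf3 was lower.

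Several other genes were among the largest ratios. Sqrdl, a mitochondrial sulfide oxidase, had 84.7 CPM (58.7 to 118) in class II-low cells, against 2.81 CPM (0.0713 to 15.7) in class II-high cells, Cd84, an adhesion receptor of the SLAM family, 122 CPM (90.3 to 161), against 8.44 CPM (1.74 to 24.7), and Mnda, an interferon-inducible nuclear protein, 102 CPM (73.3 to 139), against 8.44 CPM (1.74 to 24.7). C3, the central complement component, had 69.7 CPM (46.3 to 101), against 5.63 CPM (0.682 to 20.3). Among the largest ratios the other way were those of Dnase1l3, a secreted nuclease, at 1 UMI against 152 CPM (114 to 198), Ccnd1, cyclin D1, at 3 UMIs against 205 CPM (161 to 258), and Klrd1, the lectin CD94, at 5 UMIs against 180.2 CPM (139 to 230.1). Of 9 Ms4a genes, which encode tetraspan-like membrane proteins, 2 were at least 2 times higher and 0 lower, Ms4a8a at 122 CPM (90.3 to 161) against 14.1 CPM (4.57 to 32.8) and Ms4a6d at 87.2 against 33.8 CPM. Of 6 S100 genes 0 passed 2 times either way. S100a6 had 2583 against 1346 CPM, and S100a8, which the rule limited, had 59.8 against 70.4 CPM. Of 14 adhesion genes 3 were higher, among them Itgal and Itgam, the alpha chain of complement receptor 3, at 107 against 42.2 CPM, and Itgax was lower. Itgam has 2 identifiers in the files, and the first was used. Of 11 chemokine receptor genes 3 were higher, Ccr2, Cx3cr1 and Ccrl2, an atypical receptor, at 64.8 against 31 CPM, and Ccr7 was lower, at 14.9 against 56.3 CPM. Beside these lists, 12.3% of all genes tested were higher and 9.08% lower. The sizes given for the Ms4a, adhesion and chemokine receptor lists include genes that were not tested.

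Genes of dividing cells were scarce. The 10 genes of that list had 20 UMIs in 16 of the 98 cells, or 49.8 CPM, against 445 CPM in 22.2% of class II-high cells. In the class II-low cells 6 of the genes, Top2a, Birc5 and Stmn1 included, had 0 UMIs. The class II-high sum was uneven, with 55 of its 158 UMIs in 1 cell. Mki67 had 1 UMI, and Pcna, also used in DNA repair, had 32.4 CPM (17.2 to 55.4), against 39.4 CPM (21.5 to 66.1). Class II-high cells had 152 CPM (114 to 198) for Stmn1, so that it was at least 20.3-fold lower in class II-low cells, and 47.9 CPM for Top2a. Stmn1 had a median of 0 UMIs per class II-high cell and 20 in the highest. Genes induced by stress or tissue digestion were detected but lower than in labelled cells for several. Fos had 1746 CPM in class II-low, 1222 CPM in class II-high and 5113 CPM in labelled cells, and Hspa1a, a heat shock chaperone, 27.4, 16.9 and 1169 CPM. Of 16 such genes, 1 was at least 2 times higher than in class II-high cells and 2 were lower. Over all genes tested 12.3% were higher and 9.08% lower.

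Markers of other cell types were few in the class II-low cells. The 10 SMC markers summed to 82 UMIs in 56 of the 98 cells, or 204 CPM, against 205 CPM in class II-high, 152 CPM in B cell gene positive and 49468 CPM in labelled cells. Acta2, smooth muscle actin, made up 44 of these UMIs. In the other direction Lyz2 was seen in 5.11% of labelled cells, at 4.63 CPM. The 11 neutrophil markers summed to 237 CPM in class II-low cells, against 177, 162, 148 and 10.7 CPM in class II-high, B cell gene positive, cytotoxic gene positive and labelled cells. Of the 7 T cell markers, 5 were at 0 with 9 UMIs in all, and of the 6 B cell markers, 3 were at 0 with 8 UMIs in all. Of the 6 endothelial markers 5 were at 0, with 6 UMIs in all. The 7 fibroblast markers had 27 UMIs, all but 1 in Pi16, a secreted protease inhibitor, at 64.8 CPM (42.3 to 94.9) against 11.3 CPM (3.07 to 28.8) in class II-high cells and 3.94 CPM in labelled cells. The part of free RNA in these values was not tested.

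Set against the labelled cells, the class II-low cells differed in most genes. Of 3458 genes with 50 CPM or more in either population, 851 were at least 2 times higher in class II-low cells (24.6%) and 1292 lower (37.4%). All 12 core myeloid genes were higher, and all 10 SMC genes lower. The core myeloid list holds Lyz2, Tyrobp and Fcer1g, which were in the rule. The labelled cells were chosen by eGFP, which depends on Myh11-CreERT2, and Myh11 is on the SMC list. Both counts therefore describe how the cells were chosen and are no test. Cybb had 864 CPM (776 to 960.3) in the class II-low cells and 0.0498 CPM in labelled cells, where it came from 1 UMI. Among the lower genes were some of muscle and matrix. Acta2 had 109.6 CPM in class II-low and 20901 CPM in labelled cells, Eln, elastin, 4.98 and 2791 CPM, and Bgn, the proteoglycan biglycan, 9.96 and 3821 CPM. Tsc1, the gene deleted in the KO, had 1 UMI in the class II-low cells, or 2.49 CPM (0.0631 to 13.9), and 9.57 CPM (8.26 to 11) in labelled control cells. Against B cell gene positive cells 889 of 2505 genes were at least 2 times higher in the class II-low cells (35.5%) and 302 lower (12.1%), and 681 and 445 with median-of-ratios scaling, which shifted all log2 ratios by 0.33. Against cytotoxic gene positive cells 627 of 2853 genes were higher (22%) and 595 lower (20.9%). Csf1r had 0 UMIs in B cell gene positive cells and 29.7 CPM in cytotoxic gene positive cells, where the class II-low cells had 296 CPM. Spi1 had 757 CPM in class II-low, 82.9 CPM in B cell gene positive and 35.6 CPM in cytotoxic gene positive cells.

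The class II-low cells were not uniform. Divided at 3 UMIs of Ly6c2, 55 cells lay at or above it, 42 below it and 1 apart with 22 C1q UMIs. Of the 42, 7 carried mast cell and basophil genes and are described on their own, which left 35. That division is a range of 1 gene's count and not a cell type, and 18 of the 98 cells had 1 to 2 and 9 had 3 to 4 Ly6c2 UMIs, near the limit. The 55 Ly6c2-high cells were deeper, with a median of 4735 UMIs, than the 35 Ly6c2-low cells, with 3259. After thinning to 1500 UMIs, 31 cells lay above the limit and 66 below. Levels are therefore compared as CPM, and Ly6c2 itself is not a result.

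Classical genes were higher and nonclassical genes lower in the Ly6c2-high cells. Of 15 classical genes 8 were at least 2 times higher than in the 35 Ly6c2-low cells, Ly6c2 included, and 0 lower. Of 16 nonclassical genes 0 were higher and 12 lower, with median log2 ratios of 1.03 for the classical and -2.34 for the nonclassical list and of 0.03 over all 2540 genes tested. In that comparison 246 of all genes were higher (9.69%) and 268 lower (10.6%). F13a1 had 379 CPM (308 to 462) in the Ly6c2-high cells, against 66 CPM (28.5 to 130.1) in the Ly6c2-low cells. Chil3 had 739 CPM (638 to 852), against 215 CPM (140.2 to 314), and it was found in 28 of 55 and 9 of 35 cells. Ccl2 had 155 CPM (111 to 211), against 33 CPM (8.99 to 84.5), and Cd14 139 CPM (97.6 to 193), against 33 CPM (8.99 to 84.5). Ccr2 was 2.05 times as high, at 557 against 272 CPM. Lyz2, with 2, 205 and 357 UMIs per cell at the lowest, median and highest in the Ly6c2-high cells and 0, 58 and 194 in the Ly6c2-low cells, was 2.02 times as high in CPM. Plac8 was level, at 8291 against 7898 CPM.

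Nonclassical monocyte genes gave many of the ratios on the other side. Ace, angiotensin-converting enzyme, had 23.2 CPM (8.52 to 50.5) in the Ly6c2-high cells, from 4 of 55 cells, against 388 CPM (285 to 516) in the Ly6c2-low cells, from 18 of 35 cells. Treml4, a receptor of the TREM family, had 23.2 CPM (8.52 to 50.5) in 4 cells, against 256 CPM (174 to 363) in 20 cells. Fabp4 had 0 UMIs in the Ly6c2-high cells, which allows up to 11.6 CPM, against 173 CPM (107 to 265), at least 14.9-fold lower. Eno3, a muscle-type enolase, had 7.74 CPM (0.937 to 28), against 165 CPM (101 to 255). Ear2, an eosinophil-associated ribonuclease, had 31 CPM (13.4 to 61), against 256 CPM (174 to 363), and Pglyrp1, a peptidoglycan-binding protein, 38.7 CPM (18.6 to 71.2), against 256 CPM (174 to 363). Spn, the sialomucin CD43, had 31 CPM (13.4 to 61), against 124 CPM (69.3 to 204), Itgal 135 against 413 CPM and Nr4a1 217 against 586 CPM. Cx3cr1, often used to tell the 2 kinds apart, had 228 CPM (174 to 294), against 305 CPM (215 to 421), and the interval of their ratio, 0.748-fold (0.487 to 1.16), spans 1. The survival genes Bcl2a1a and Bcl2a1b, near-identical copies, were also lower, at 11.6 against 149 and 19.3 against 231 CPM. Malat1, a nuclear noncoding RNA, had 10024 against 22629.9 CPM.

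**Figure D4:**
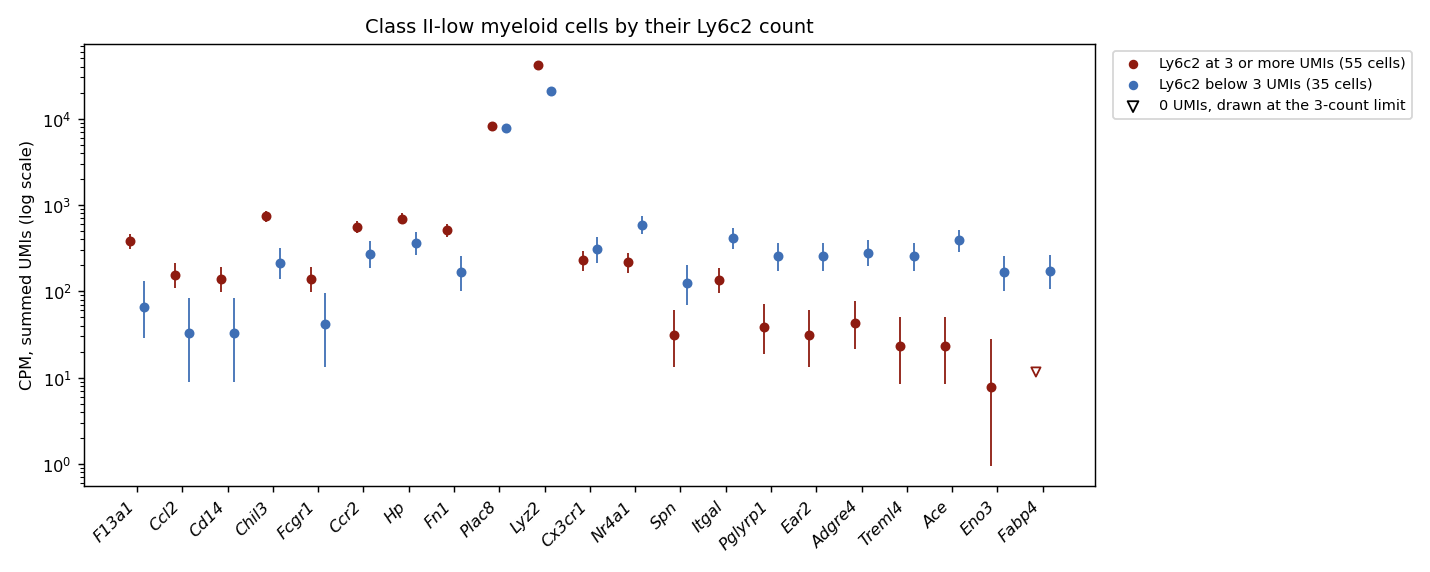
Summed level (CPM, log scale, with exact 95% Poisson intervals) of 21 genes in the 55 class II-low cells with 3 or more Ly6c2 UMIs and in 35 with fewer, leaving out 7 cells with mast cell and basophil genes and 1 cell with C1q genes, with an open triangle for 0 UMIs at the level of 3 counts. F13a1, Ccl2, Cd14 and Chil3 lay higher in the Ly6c2-high cells, and Ace, Treml4, Ear2, Eno3 and Fabp4 lower.

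Of 16 interferon genes 4 were at least 2 times higher in the Ly6c2-high cells and 1, Ifitm1, was lower. Among all genes tested in that comparison 9.69% were higher and 10.6% lower. Ifitm1 had 28 of its 30 UMIs in 1 Ly6c2-low cell described further on. Isg15, a ubiquitin-like protein, had 182 CPM (134 to 242), against 66 CPM (28.5 to 130.1), and Irf7, a master regulator of the interferon response, 294 CPM (232 to 368), against 124 CPM (69.3 to 204). Oasl2 had 132 against 33 CPM, and Ifi204, a DNA sensor outside the list and among the 10 largest ratios, 429 CPM (353 to 517), against 124 CPM (69.3 to 204). Slpi, a secreted protease inhibitor, was 3.96 times as high, at 294 against 74.3 CPM. Class II genes stayed low in both, though Cd74 had 495 CPM (413 to 589), against 1354 CPM (1154 to 1577). Xist was at 631 against 660.2 CPM, and the SMC marker sum was 170 against 239 CPM. Ccl5 had 89 against 718 CPM, but 79 of the 113 Ccl5 UMIs in the class II-low cells came from 1 Ly6c2-low cell that also had 15 UMIs of Fscn1 and 5 of Ccr7, genes of migratory dendritic cells, and 0 of Lyz2 and Plac8. Il1b had 34.8 CPM (15.9 to 66.1), against 189.8 CPM (120.3 to 285).

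In 7 of the 98 cells genes of basophils and mast cells stood in place of Lyz2. This group was defined after the counts were seen, as 3 or more UMIs of Fcer1a, Cpa3, Mcpt8 and Ms4a2 together, and its sums ran from 4 to 25 UMIs. A further cell had 2 and all others had 0, and 0 class II-high cells reached 3. The 7 cells had Lyz2 counts of 0, 0, 0, 0, 1, 0 and 1 UMIs and entered through Tyrobp (11 to 20 UMIs) and Fcer1g (7 to 15 UMIs), the adaptor that also serves the IgE receptor. Fcer1a, the alpha chain of the high-affinity IgE receptor, had 31 of its 32 UMIs in the class II-low cells here (96.9%). Cpa3, a granule carboxypeptidase, had 16 of 16 UMIs here, Mcpt8, a basophil protease in mice, 16 of 16, and Gata2, a transcription factor that both lineages need, 15 of 15. Fcer1a, Cpa3 and Mcpt8 were used to define the group, so their shares here are no test. The mast cell genes Kit and Mcpt4 had 0 UMIs in all 98 cells.

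The same 7 cells carried most of the UMIs of several other genes, those of secreted products among them. Ccl3 had 50, 54, 61, 37, 44, 44 and 61 UMIs in them, 70.9% of all Ccl3 UMIs of the class II-low cells. Ccl4 had 18 to 43 UMIs per cell (72.4% of the total), Osm 4 to 20 UMIs (72.5%) and Ifitm1 2 to 48 UMIs (84.8%). Cd200r3, an activating receptor of basophils and mast cells in mice, had 30 of 33 UMIs here, and Cyp11a1, the enzyme that starts steroid synthesis, 20 of 24. Hdc, which makes histamine, had 1 or 2 UMIs in each cell and 13 of 20 in all. The cell with 2 marker UMIs had 40 UMIs of Ccl3, 31 of Ccl4, 28 of Ifitm1, 4 of Hdc and 0 of Lyz2, and it stayed among the Ly6c2-low cells. Hdc and Gata2 were named after their counts were seen.

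**Figure D5:**
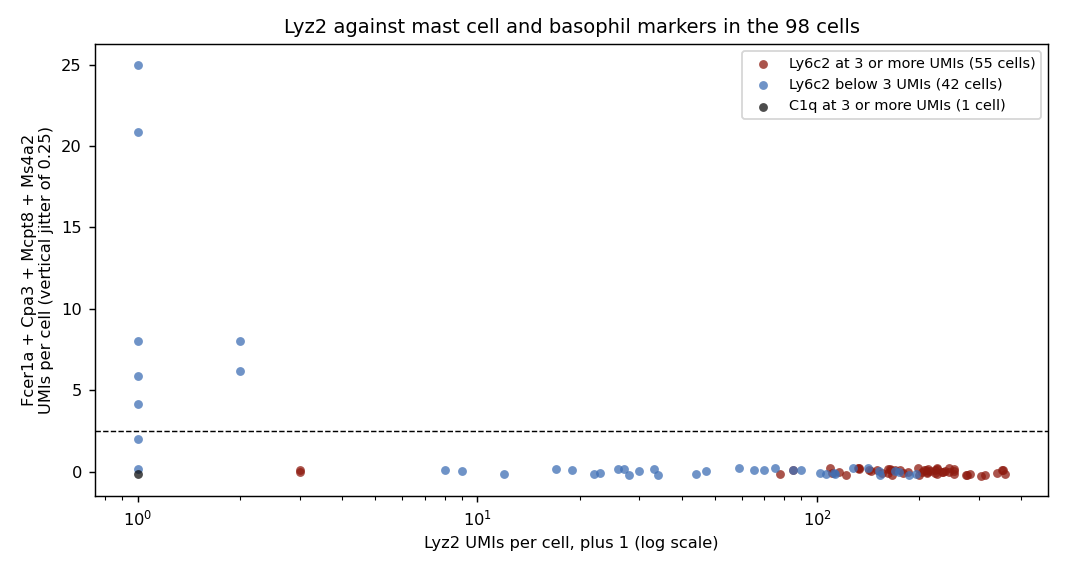
Each point is 1 of the 98 class II-low cells, by its Lyz2 UMIs plus 1 (x axis, log scale) and its UMIs of Fcer1a, Cpa3, Mcpt8 and Ms4a2 together (y axis, with vertical jitter of up to 0.25), coloured by Ly6c2 and C1q counts, with the dashed line between 2 and 3 UMIs. The 7 cells above the line had 0 or 1 Lyz2 UMI.

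The 1 cell with C1q genes had 4 UMIs of C1qa, 10 of C1qb and 8 of C1qc, and 0 of Lyz2, Plac8 and Ly6c2. It also held 62 of the 63 globin UMIs found in the class II-low cells, with 18 of Hmox1, the haem-degrading enzyme, 26 of Slpi, 5 of Vcam1 and 2 of Spic, a transcription factor of iron-recycling macrophages. Its Xist count of 11 UMIs was the highest of the 98. Hmox1, Vcam1 and Spic were named after their counts were seen. Without this cell and the 7, the remaining 90 cells had a median of 153 and a highest count of 357 Lyz2 UMIs, and 2 of them had none. In those 90 cells 11 of 15 classical monocyte genes were again at least 2 times higher than in class II-high cells, and 314 of 2534 genes in all were higher (12.4%) and 229 lower (9.04%).

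In the authors' deposited table of mean levels per 10000 counts by cluster and library, 1 column was most like these cells. The control column of cluster 5 had a Spearman correlation across 16403 genes of 0.975 with the class II-low cells, and the next, the control column of cluster 6, 0.858. Genes are not independent and both share a library, so this is a description. In the authors' deposited table that column had 327 for Lyz2, 84.7 for Plac8 and 14.5 for Ly6c2 per 10000, where the class II-low cells had 334, 78.7 and 14.8 in sum. As means over cells, the measure the column was taken to hold, the class II-low cells had 308, 77.1 and 13.5. That column had 34.3 for Cd74 in the authors' deposited table, where the class II-low cells had 7.42 in sum and 8.06 as a mean over cells. Fcer1a was listed at 0, where the class II-low cells had 0.797 in sum and 1.13 as a mean over cells.

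The KO library held no such cells under the same rule, 0 of 1936 cells, which allows a share of up to 0.155%, against 98 of 2042 control cells. It had 13 cells with 2 or fewer eGFP UMIs, against 341 of 2042 in the control library, and 8 of the 13 had 5 or more UMIs of Lyz2, Tyrobp and Fcer1g. Of those 8, 6 had a class II sum of 20 or more, and 2 had 20 or more UMIs of S100a8 and S100a9. Lyz2 was seen in 90 KO cells, with 304 UMIs in all and 134 in the highest cell. No cell of either library over the mitochondrial limit met the rest of the rule. With 1 library per genotype, a difference between genotypes, between sorts and between preparations cannot be told apart.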

How the data were processed

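The authors deposited, for each library, a matrix of raw UMI counts per gene and cell, with 28000 features and no sample columns left unused. The control matrix held 2095 cells with 21690868 UMIs and the KO matrix 2097 cells with 32427513 UMIs. The tools named, per the submitters' processing notes, were Seurat 2.0, Cell Ranger and bcl2fastq, with build mm10, and no source used here gives the versions of the other two. A deposited table of the authors' averages gave a score per gene in 16 columns named by cluster and library, each summing to 10000, so its unit was taken as mean counts per 10000. Gene positions came from GENCODE M21, where 27645 of 27998 identifiers were found.

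Cells with at least 500 genes and at most 10% mitochondrial UMIs were kept, 2042 control and 1936 KO. CPM came from counts summed per population over their total, with exact Poisson intervals for levels, exact binomial (Clopper-Pearson) intervals for shares, and exact conditional binomial intervals for ratios, all at 95%. A count of 0 was set to 3 counts, per population, for a bound. Genes with 50 CPM or more in 1 of 2 populations were called higher or lower at 2 times. Mitochondrial and ribosomal protein genes stayed in the totals. Cells were thinned to 1500 UMIs with a fixed seed for shares. The calls and intervals were checked on simulated counts drawn with counting error only. That check could not cover uneven spread between cells. With 1 library per group, no test between samples was made, and the labels do not say how many animals each library holds.

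The cells, the lists and the rule for named genes were chosen with earlier results of these data known. That rule took every gene used to choose the cells, the 6 marker genes, the 15 most abundant genes, the 12 largest and 12 smallest ratios to class II-high and to labelled cells, list members at 50 CPM or more with defining ones below it, and the 10 largest ratios within the cells. Igkc, Ighm, Ighd, Trac, Trbc2, Clec7a and Cebpd were not analysed here, and values of a few other listed genes are left out. Python 3.11.15, numpy 2.4.6, scipy 1.17.1, pandas 2.3.3, scanpy 1.11.5 (Scrublet) and matplotlib 3.10.9 were used. Alternatives changed the limits of the rule, the scaling, the CPM minimum, the fold and the depth of thinning.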

Additional observations from a re-analysis of the deposited data

How the results depend on the processing

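The number of class II-low cells ranged from 83 (no B cell or cytotoxic UMI allowed) to 104 (class II limit of 40 UMIs) over the limits tried, against 98. Counts of genes past 2 times rested on the minimum level and the fold, since these set which genes are counted. Against class II-high cells, 531 became 2012 at a minimum of 10 CPM, 2614 with no minimum, 1019 at 1.5 times and 140 at 4 times. Against B cell gene positive cells, 1191 became 3183 at 10 CPM, 3655 with no minimum and 571 at 4 times. Against cytotoxic gene positive cells, 1222 became 3189, 3516 and 574 under the same 3 settings, with 1295 higher and 1894 lower at 10 CPM. Against labelled cells, 2143 became 4968, 6140 and 1395. Median-of-ratios scaling shifted log2 ratios to class II-high cells by 0.13, which gave 238 genes higher and 258 lower where scaling to totals gave 305 and 226. The share of class II-low cells with Xist was 63.3% after thinning to 1500 UMIs and 43.9% after thinning to 1000, against 89.8%. Thinning to 1500 UMIs left 31 Ly6c2-high and 66 Ly6c2-low cells, against 55 and 42.

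Leaving out the 7 cells with basophil genes and the C1q cell was chosen after seeing the data, and it left 0 cells with 3 or more C1q UMIs. It also gave 79.0 CPM for both Osm and Ifitm1, 2.63 CPM for Fcer1a and C1qa, and 35307 CPM for Lyz2. Levels of a fixed set of genes were recomputed under each setting, 375 values in all, and 345 lay within the counting interval of the main value. Many of these could not move, because several settings left the same 98 cells. Among those settings were a gene minimum of 200, mitochondrial limits of 5% and 20%, an S100a8 and S100a9 limit of 5, and leaving out called doublets. Leaving out a replicate was not possible with 1 library per group. No paired analysis was possible because each group is 1 library and the labels give no replicate numbers. Depth limits the low end, since 3 counts equal 7.47 CPM in the class II-low cells and 24.8 CPM in the 35 Ly6c2-low cells.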
